A study of Danio rerio with 8 samples.

Results

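Keratins and epithelial surface genes were followed here in epicardial cells of the juvenile zebrafish heart. The set holds 9 genes named beforehand by symbol: the keratin genes krt4, krt8, krt15, krt18a.1, krt18b and krt94, and the surface genes epcam, cdh1 and podxl. All 9 were found among the 37685 gene symbols of the count tables, on 15 of the 53709 rows, and rows that carried the same symbol with an added number (called copies) were summed. Nuclei of the cells were marked by the Tg(tcf21:nEGFP) reporter, in which EGFP expression follows tcf21, a transcription factor gene of the epicardium, and EGFP-positive ventricular cells were sorted at 70 days post-fertilization. The cxcr4a mutant group comprised 4 libraries of cxcr4aum20 fish carrying the reporter, which the labels describe with "Coronary loss", and the wild-type group comprised 4 libraries of reporter fish given as controls. The labels do not say whether a library came from a single fish or a pool, so p-values reflect only how far these libraries scatter, and some of that scatter may be technical. The loss of vessels and other effects of the mutation cannot be told apart in this design.

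The epicardium is a mesothelium, a thin epithelial sheet of mesodermal origin that covers the heart. Such simple epithelia build their intermediate filaments from keratins, each filament pairing a type II keratin, such as the products of krt4 and krt8, with a type I keratin, such as those of krt15, krt18a.1, krt18b and krt94. E-cadherin (cdh1) joins neighbouring epithelial cells at adherens junctions, Epcam is a homophilic adhesion protein of many epithelia, and podocalyxin (podxl) is a sialic acid-rich protein of apical surfaces that is also made by vascular endothelium. Loss of E-cadherin and of keratins is a classical sign of epithelial cells that turn mesenchymal, a route that epicardial cells can take.

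Totals per library were 18891079 to 25513003 counts for the 4 mutants and 19584695 to 28471786 for the 4 wild types. The share of counts from mitochondrial genes was highest in wild type 1, at 30.8%, and at or below 14.9% in the other libraries. The mutated gene cxcr4a had 86 to 447 counts in mutant libraries and 12 to 219 in wild-type libraries, and a mutant transcript can still be counted, so this does not check the genotype. Markers of the sorted cell type were present in part. The epicardial transcription factor genes tcf21, tbx18 and wt1b averaged 88.5 ± 17.6, 749 ± 65.2 and 140 ± 45.1 CPM (TMM-scaled counts relative to library size) in the mutants and 109 ± 31.1, 827 ± 276 and 104 ± 30.7 CPM in the wild types (SD, 4 libraries each). The mesothelial surface marker mslnb (mesothelin) had no count in wild type and at most 2.05 CPM in mutants, upk3b was at 0 in all 8 libraries, and aldh1a2, an epicardial retinoic acid enzyme gene, had 15 counts over the mutants and 18 over the wild types. The last 2 genes occupy 2 rows each, which limits how such low counts can be read, as described for epcam.

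The 9 genes fell into 2 kinds by how well they were counted. krt4, krt8, krt18b, krt94 and podxl were above 309 CPM in every library, whereas krt15, krt18a.1 and cdh1 stayed below 7 CPM in every library and epcam had no count at all. Gene lengths were not used, so CPM values of different genes cannot be ranked as levels of expression. All keratin members together made up 1.18% ± 0.44 of counts in the mutants and 1.22% ± 0.39 in the wild types (SD, 4 libraries each). The lowest and highest shares were 0.783% and 1.81% in the mutants and 0.826% and 1.76% in wild type, each with a 95% Wilson interval no wider than 0.00601 percentage points either side, which covers counting error only. The type I keratin krt94 ranked between 5 and 12 among all symbols by raw counts in each group.

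**Figure D1:**
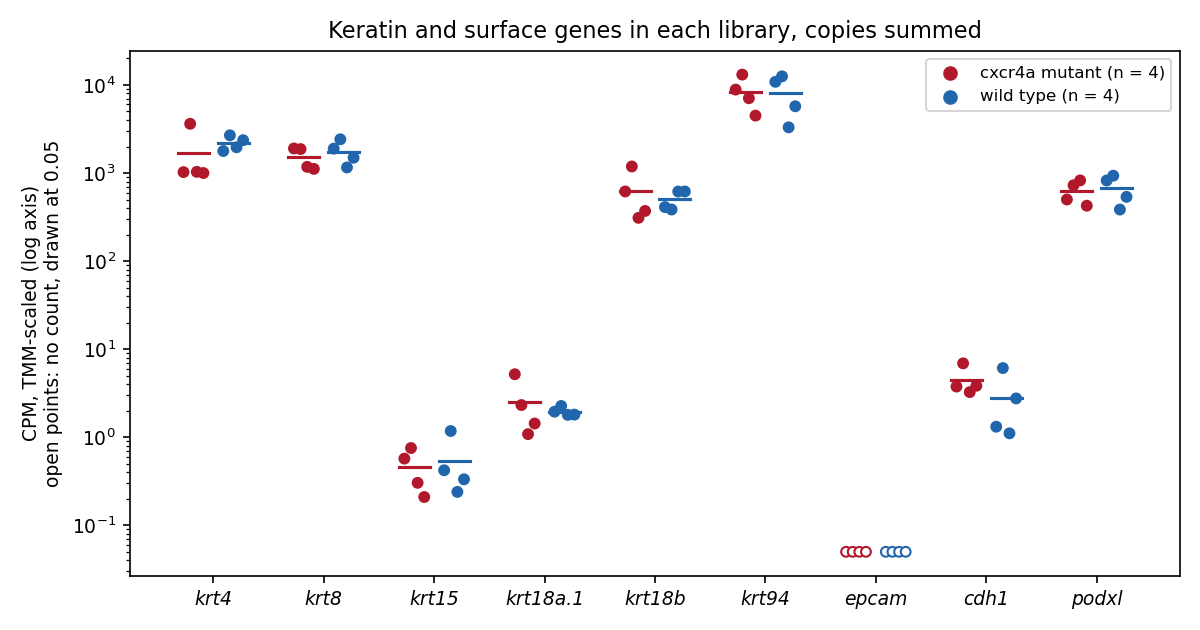
TMM-scaled CPM (log axis) of the 9 genes in each cxcr4a mutant (red) and wild-type (blue) library, with the group mean as a bar and libraries 1 to 4 from left to right. The groups overlap for every gene with counts, epcam has none, and heights of different genes are not comparable because values are not per length.

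No member was called different between genotypes. Of the 9 genes, 7 had enough counts to be tested by edgeR (krt15 and epcam did not), and 0 of the 7 were called at an adjusted p under 0.05, against 0.0481% of the 16631 symbols tested (0.0120% higher and 0.0361% lower in mutants). None of the 7 had an unadjusted p under 0.05 in edgeR either, against 8.64% of all symbols, and DESeq2 called 0 members. For each member with counts the CPM ranges of the 2 groups overlapped, whereas they did not overlap for 6.30% of the tested symbols. The log2 fold changes (mutant over wild type) were positive for 4 of the 7 and had a median of 0.05, beside 50.7% positive and a median of 0.01 over all symbols. A missed threshold does not show equal levels: the 95% interval of the log2 fold change ran from -0.88 to 0.48 for krt8, the narrowest, and from -0.76 to 2.07 for cdh1, the widest.

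**Figure D2:**
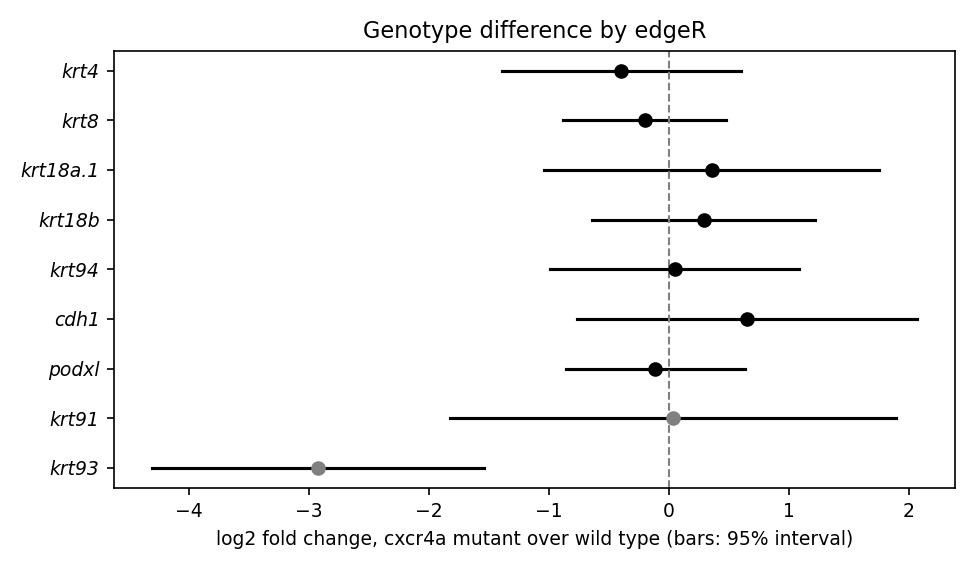
Log2 fold changes of cxcr4a mutant over wild type from edgeR (x axis) with 95% intervals, for the 7 members tested (black points) and for krt91 and krt93 (grey points). The intervals of all 7 members and of krt91 include 0, and that of krt93 runs from -4.31 to -1.54.

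Among the type II keratins, krt8 had the narrowest interval. It measured 1900, 1870, 1175 and 1114 CPM in mutants 1 to 4 and 1891, 2414, 1157 and 1491 CPM in wild types 1 to 4. Both genotypes thus contained libraries with low and with high values. The log2 fold change was -0.20 with a standard error of 0.30, as after ± in later fold changes (95% interval -0.88 to 0.48; edgeR adjusted p = 0.905).

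The other type II keratin, krt4, measured 1024, 3622, 1031 and 999.7 CPM in mutants 1 to 4 and 1777, 2681, 1960 and 2358 CPM in wild types 1 to 4. Mutants 1, 3 and 4 lay below every wild-type library and mutant 2 lay above every one of them. With all 8 libraries the log2 fold change was -0.39 ± 0.44 (95% interval -1.39 to 0.60, edgeR adjusted p = 0.863). Without mutant 2 it was -1.11 (edgeR adjusted p = 0.225), and without mutant 1, 3 or 4 it was -0.24, -0.22 and -0.21. Mutant 2 was singled out by its krt4 value, so the fit without it is no separate evidence. The within-group SD of log2 CPM was 0.92 in the mutants and 0.27 in wild type, beside medians of 0.54 and 0.58 over all symbols. Mutant 2 also had the highest summed level of 15 mural cell markers (smooth muscle and pericyte genes such as acta2 and myh11a), at 11451 CPM against 1044 to 2099 CPM in the other mutants and 666 to 5753 CPM in the wild types. Mutant 2 was also the highest library for 30 epidermal and pharyngeal epithelial markers, a list that includes krt91. Their sum was 6967 CPM there, 1610 to 3181 CPM in the other mutants and 1986 to 4538 CPM in the wild types. The part of either set of cells in the krt4 value was not tested.

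Among the type I keratins, krt94 had the most counts. It measured 8858, 13104, 7068 and 4485 CPM in mutants 1 to 4 and 10842, 12529, 3301 and 5725 CPM in wild types 1 to 4. Mutant 2 was the highest library and wild type 3 the lowest, and the other libraries of both groups were interspersed. Its log2 fold change was 0.05 ± 0.46 (95% interval -0.99 to 1.09; edgeR adjusted p = 0.990). krt94 supplied 64.3% to 73.7% of the keratin members' counts in the mutants and 46.9% to 72.7% in wild type.

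krt18b, a simple-epithelial keratin gene related to mammalian KRT18, measured 617, 1187, 309.6 and 371 CPM in mutants 1 to 4 and 411, 385, 617 and 617 CPM in wild types 1 to 4. The mutants spanned a range that enclosed all 4 wild types. The log2 fold change of the summed gene was 0.29 ± 0.42 (95% interval -0.64 to 1.22; edgeR adjusted p = 0.899).

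krt18a.1, the other gene of that kind, measured 5.19, 2.32, 1.08 and 1.43 CPM in mutants 1 to 4 and 1.95, 2.27, 1.80 and 1.81 CPM in wild types 1 to 4. Mutant 1 was the highest library, and the wild types lay close together inside the range of the mutants. The log2 fold change was 0.36 ± 0.62 (edgeR adjusted p = 0.924). krt15 had 6 to 13 counts per library in the mutants and 7 to 27 in wild type, below the filter for testing.

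Of the surface genes, podxl measured 501, 726, 825 and 426 CPM in mutants 1 to 4 and 823, 932, 385 and 536 CPM in wild types 1 to 4. The wild types spanned a range that enclosed all 4 mutants. The log2 fold change was -0.11 ± 0.33 (95% interval -0.86 to 0.64; edgeR adjusted p = 0.965). Since endothelial cells also make podocalyxin, endothelial genes were read beside it: 25 endothelial markers summed to 308 to 533 CPM in the mutants and 354 to 629 CPM in the wild types, with plvapb and lyve1b at 0 in all libraries. flt4, the most counted of them, was at 32.6 ± 7.98 CPM in the mutants and 99.7 ± 35.8 CPM in the wild types (log2 fold change -1.61 ± 0.32, edgeR adjusted p = 0.145, DESeq2 adjusted p = 0.00141). Every mutant lay below every wild type, as for 2.82% of all tested symbols. cldn5b went the other way, at 15.6 ± 11.6 CPM in the mutants and 6.15 ± 3.67 CPM in the wild types (1.34 ± 0.66, edgeR adjusted p = 0.614). Of 22 tested endothelial markers 6 were positive, and 1 had an unadjusted p under 0.05 in each direction: flt4, lower in mutants, and kdr, higher. Over all tested symbols 50.7% were positive, and 5.09% were higher and 3.55% lower in mutants at that threshold. For cldn5b the unadjusted p by edgeR was 0.0708. The part of endothelial RNA in the podxl counts was not tested. In such bulk samples, fewer cells of a type and less RNA per cell cannot be told apart.

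cdh1 was weakly counted, with 79, 119, 75 and 110 counts in mutants 1 to 4 and 25, 140, 37 and 58 counts in wild types 1 to 4. Scaled, it measured 3.76, 6.90, 3.25 and 3.84 CPM in the mutants and 1.32, 6.10, 1.11 and 2.76 CPM in wild types. Each mutant lay above 3 of the 4 wild types, and wild type 2 lay above 3 of the 4 mutants. The log2 fold change was 0.65 ± 0.63 (95% interval -0.76 to 2.07, edgeR adjusted p = 0.833). Without wild type 2 it was 1.34 (edgeR adjusted p = 0.713), and leaving out any other library gave 0.35 to 0.78. Wild type 2 was singled out by its cdh1 value, so the fit without it is no separate evidence. The gene of another classical cadherin, N-cadherin (cdh2), was at 759 ± 85.5 CPM in the mutants and 838 ± 138 CPM in the wild types (log2 fold change -0.14 ± 0.21, edgeR adjusted p = 0.901). snai2, which encodes a repressor of E-cadherin transcription in mammals, was at 302 ± 141 CPM in the mutants and 176 ± 11.6 CPM in the wild types (log2 fold change 0.78 ± 0.31, edgeR adjusted p = 0.522).

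epcam had 0 counts in all 8 libraries, on both of its rows, which allows up to 0.0163 unscaled CPM over the 8 libraries by counting error alone. Low counts of genes that occupy 2 rows need care. The leukocyte gene coro1a, on 2 rows, had 23 counts, while the leukocyte genes ptprc and lcp1 were at 112 and 304 CPM in the mutants and 106 and 395 CPM in the wild types. coro1a was chosen after its values were seen. The sources used here do not give how reads that fit both copies were handled. The low counts of epcam, krt15 and krt18a.1, each on 2 rows, therefore cannot be read as low expression, whereas cdh1 occupies 1 row. krt4, krt8 and krt18b also occupy 2 rows each, so the same limit applies to their summed values and fold changes. Whether it differed between the genotypes was not tested. Of symbols on more than 1 row, 33.1% had no count in any library, and of symbols on 1 row, 28.8%.

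The division of counts between copies, which was not in the plan, was read for each keratin on 2 rows. krt18b had 3.81%, 52.2%, 31.7% and 28.2% of its counts on the plain copy in mutants 1 to 4 and 65.3%, 63.4%, 86.0% and 92.2% in wild types 1 to 4. Every mutant lay below every wild type, and the 95% Wilson interval of any of these shares reached at most 1.08 percentage points either side, for counting error only. The mean share was 29.0% ± 19.8 in the mutants and 76.7% ± 14.5 in the wild types (SD, 4 libraries each; exact permutation p = 0.0286, 2-sided, the smallest that 4 against 4 can give). Such separation was common: among 1422 symbols on 2 rows with 20 or more counts in every library, the groups did not overlap for 29.0%. A larger difference in mean share than that of krt18b was found for 4.50% of them.

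krt4 showed a similar division without full separation. Its plain copy held 30.9%, 64.6%, 54.6% and 50.5% of counts in mutants 1 to 4 and 60.1%, 61.3%, 84.7% and 89.9% in wild types 1 to 4. Mutant 2 lay above wild types 1 and 2, and the other mutants lay below all wild types (exact permutation p = 0.0857). krt8 went the other way, with 66.2%, 84.6%, 75.0% and 72.3% in mutants 1 to 4 and 67.4%, 68.9%, 64.9% and 64.8% in wild types 1 to 4 (exact permutation p = 0.0857). krt18a.1, with 6.79% ± 3.49 in the mutants and 5.76% ± 2.22 in the wild types, was also compared (exact permutation p = 0.629). These 4 members had at least 20 counts in every library, which krt15 did not, and their p-values are unadjusted.

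**Figure D3:**
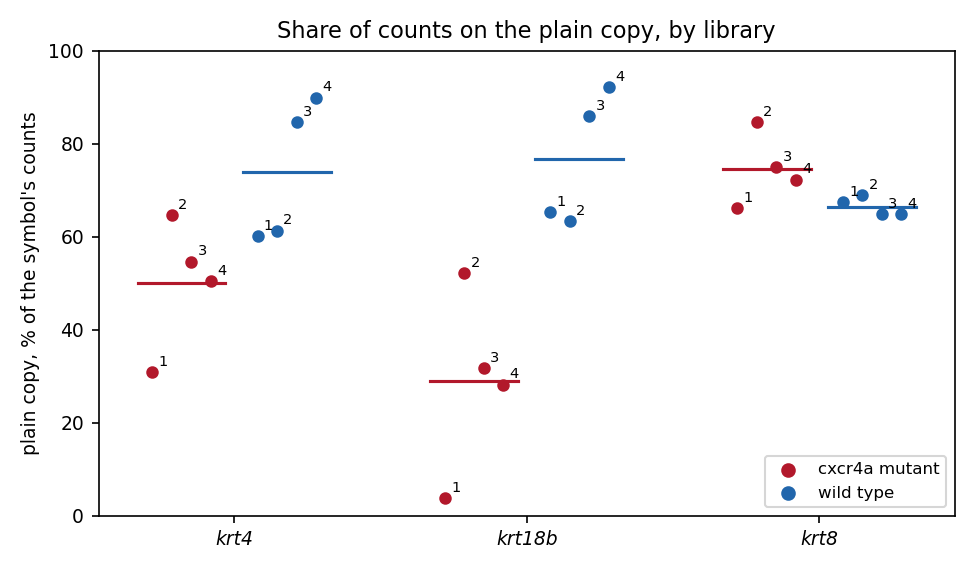
Percent of each symbol's counts that fell on its plain copy (y axis) in cxcr4a mutant (red) and wild-type (blue) libraries, numbered by replicate, with the group mean as a bar. For krt18b all mutants (3.81% to 52.2%) lie below all wild types (63.4% to 92.2%), and for krt4 and krt8 the groups overlap.

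The plain and the numbered copies of krt18b therefore gave opposite signs when the rows were tested as deposited. krt18b_1 had 12468, 9786, 4877 and 7626 unscaled counts in mutants 1 to 4 and 2707, 3233, 2884 and 1012 in wild types 1 to 4. Every mutant was above every wild type, and the share of all rows separated in this way was not computed. The log2 fold change of this row was 1.96 ± 0.45 (edgeR adjusted p = 0.123 over 18002 rows, of which 0.350% were called, 0.139% higher and 0.211% lower in mutants). At an unadjusted p under 0.05, as krt18b_1 had, 5.93% of rows were higher and 4.91% lower in mutants, 10.8% in all. For the plain copy it was -0.95 ± 0.81 (edgeR adjusted p = 0.734). The summed gene, at 0.29, was not called. For krt4 the plain and numbered copies were at -0.82 ± 0.57 and 0.36 ± 0.51 (edgeR adjusted p = 0.674 and 0.863).

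krt4 and krt18b, a type II and a type I gene, are neighbours. In the RefSeq table of the GRCz12tu assembly, which is not the GRCz11 build of the counts, 1 protein-coding gene lies between them, as does 1 between krt94 and krt15, while krt8 and krt18a.1 have none between them. The pair lies on chromosome 6, the chromosome of cxcr4a, with 442 protein-coding genes between cxcr4a and krt4 out of 1105 on that chromosome. The plain-copy shares of krt4 and krt18b moved together over the 8 libraries (Pearson r = 0.96, exact permutation p = 0.000397, adjusted 0.00119 over 3 pairs; Spearman rho = 0.90, exact permutation p = 0.00456, adjusted 0.0137), and r was 0.88 without mutant 1 and wild type 4. As a description without a test, r was 0.99 within the 4 mutants and 0.996 within the 4 wild types. The share of krt8, on chromosome 23, had r = -0.28 with that of krt18b (exact permutation p = 0.512, adjusted 0.658; rho = -0.55, p = 0.171, adjusted 0.256) and -0.52 without mutant 1 and wild type 4. With krt4 it had r = -0.18 (exact permutation p = 0.658, adjusted 0.658; rho = -0.36, p = 0.389, adjusted 0.389) and -0.34 without the same libraries. Pooling hid opposite signs within genotypes, again untested: r was 0.98 in the 4 mutants and -0.95 in the 4 wild types for krt18b and krt8, and 0.946 in the mutants and -0.934 in the wild types for krt4 and krt8.

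By chromosome of the plain symbol, the groups did not overlap in copy share for 42.9% of the 91 such symbols on chromosome 6 and for 28.1% of those on the other chromosomes. Chromosome 12 had a higher share, 52.0% of 75 symbols, and chromosome 21 a near one, 42.1% of 38. Chromosome 23, with krt8, had 14.8% of 81. Of the 10 nearest such symbols around the krt4 and krt18b pair, the groups did not overlap for 4: slc48a1b, tns2b, smarcc2 and myl6. The separation was small for slc48a1b, at 99.84% to 100% in the mutants and 99.50% to 99.83% in wild type. smarcc2 had 12.8% to 15.2% in the mutants and 16.5% to 24.4% in wild type. tns2b, a tensin gene, had 39.6% to 66.7% of counts on its plain copy in the mutants and 80.7% to 96.3% in wild type, and myl6, a myosin light chain gene, had 82.1% to 98.4% in the mutants and 35.5% to 65.4% in wild type.

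**Figure D4:**
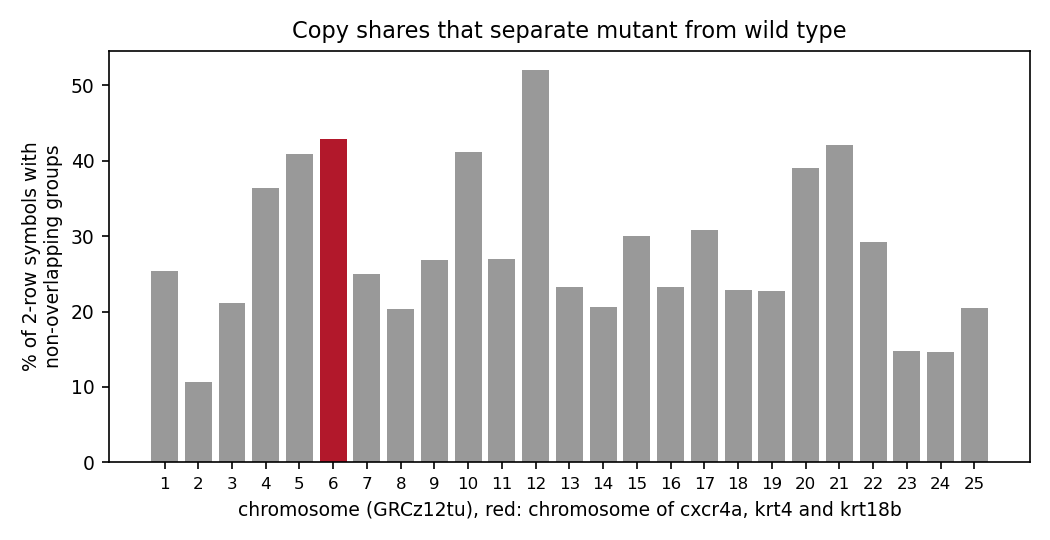
Percent of symbols on 2 rows (at least 20 counts in every library) whose mutant and wild-type libraries do not overlap in the plain copy's share (y axis), by chromosome of the plain symbol in GRCz12tu (x axis). Chromosome 6 (red) is at 42.9%, chromosome 12 highest at 52.0%.

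Over the 21 pairs of the 7 tested members, 19 had a positive Pearson r of log2 CPM over the 8 libraries, 2 had an exact permutation p under 0.05, and 0 passed after adjustment over the pairs. The share of positive pairs among other symbols was not computed. The closest pair was krt8 and krt94 (r = 0.87, exact permutation p = 0.00863, adjusted 0.170; rho = 0.79, exact permutation p = 0.0279, adjusted 0.257), with r = 0.82 without mutant 4 and wild type 2. krt94 and podxl followed (r = 0.83, exact permutation p = 0.0162, adjusted 0.170; rho = 0.71, p = 0.0576, adjusted 0.291), and without mutant 4 and wild type 3 r was 0.54. The neighbours krt4 and krt18b had r = 0.61 (exact permutation p = 0.0968, adjusted 0.450; rho = 0.45, p = 0.267, adjusted 0.539), which rested on mutants 2 and 4 and was 0.16 without them. krt8 and its neighbour krt18a.1 had r = 0.63 (exact permutation p = 0.0704, adjusted 0.450, rho = 0.81, p = 0.0218, adjusted 0.257) and 0.69 without mutant 4 and wild type 2. Pooling hid opposite signs for some pairs, untested. Within the mutants and within the wild types, r was 0.85 and -0.93 for krt18b and krt94, and 0.87 and -0.92 for krt8 and krt18b. For krt94 and podxl it was 0.56 and 0.999, with the same sign.

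Among 9156 symbols with a mean of 10 CPM or more, those whose log2 CPM followed krt94 most closely over the 8 libraries were nsa2 (r = 0.98), rsl24d1 (0.98), aebp1b (0.98), gtpbp4 (0.97) and ddx21 (0.97). For podxl they were sfrp1a (r = 0.97), lpar3 (0.97), ildr2 (0.95), si:ch211-207d6.2 (0.95) and epb41l5 (0.94). These are the closest of many candidates over few libraries and are given as a description.

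Besides the members, 17 keratin symbols were present, 4 of which were tested and 0 called by edgeR (1 had an unadjusted p under 0.05). krt91, a keratin gene, measured 901, 4629, 411 and 345 CPM in mutants 1 to 4 and 3064, 1559, 663 and 839 CPM in wild types 1 to 4. Mutant 2 was the highest library, mutant 1 lay within the wild-type range, and mutants 3 and 4 lay below every wild type. Its log2 fold change was 0.04 ± 0.83 (edgeR adjusted p = 0.995), and it changed sign without mutant 2, at -1.47.

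krt93 was the tested keratin whose groups did not overlap. It measured 2.095, 2.55, 0.737 and 0.454 CPM in mutants 1 to 4 and 7.64, 10.2, 9.45 and 16.9 CPM in wild types 1 to 4. Every mutant lay below every wild type, as was found for 2.82% of all tested symbols. The log2 fold change of -2.92 ± 0.62 (95% interval -4.31 to -1.54) did not pass by edgeR (adjusted p = 0.160, unadjusted p = 0.000865) and passed by DESeq2 (adjusted p = 0.000138), which called 2.23% of 20605 symbols.

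Some keratins had counts almost only in mutants, at low levels. krt97 had 92, 0, 53 and 542 counts in mutants 1 to 4 and 4 counts in all wild types, all in wild type 3. krt1-19e, known from the basal epidermis of zebrafish, had 95, 26, 31 and 6 counts in mutants 1 to 4 and no count in any wild type. Against a floor of 3 counts over the wild-type group, which covers counting error only, this is at least 56.4-fold higher, at least 29.4-fold without mutant 1 and at least 36.9-fold without wild type 3. cyt1l, a cytokeratin-like gene, had 15, 58, 4 and 8 counts in the mutants and 0 in wild type, at least 30.4-fold higher by the same floor, at least 11.9-fold without mutant 2 and at least 19.8-fold without wild type 3. Both were chosen after their values were seen, were too low for edgeR's filter and passed by DESeq2 (adjusted p = 0.000109 and 0.00485). Since they were chosen by these values, the bounds and p-values only describe the pattern and are no separate evidence for it. The share of all symbols with such a pattern was not computed. As a measure of other epithelia in the sort, 30 epidermal and pharyngeal epithelial markers, including krt91, krt93, krt1-19e and cyt1l, were summed. The sums were 1610 to 6967 CPM in the mutants, highest in mutant 2, and 1986 to 4538 CPM in the wild types. The most counted of them were krt91 and icn, at 1572 ± 2053 and 1488 ± 473 CPM in the mutants and 1531 ± 1093 and 1329 ± 331 CPM in the wild types. agr2, a gene of mucus-secreting cells, was at 4.11 ± 5.96 CPM in the mutants and 17.6 ± 10.01 CPM in the wild types (edgeR adjusted p = 0.592). icn was named after its values were seen. The basal epidermal factor gene tp63 was at 0.861 CPM in the mutants and 0.872 CPM in the wild types, krt5 had 0 counts over the mutants and 2 over the wild types (tp63 and krt5 are each on 2 rows), and anxa1c, cldnf, cldni and muc5.1 were at 0 in all libraries. Their part in these keratin counts was not tested.

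**Figure D5:**
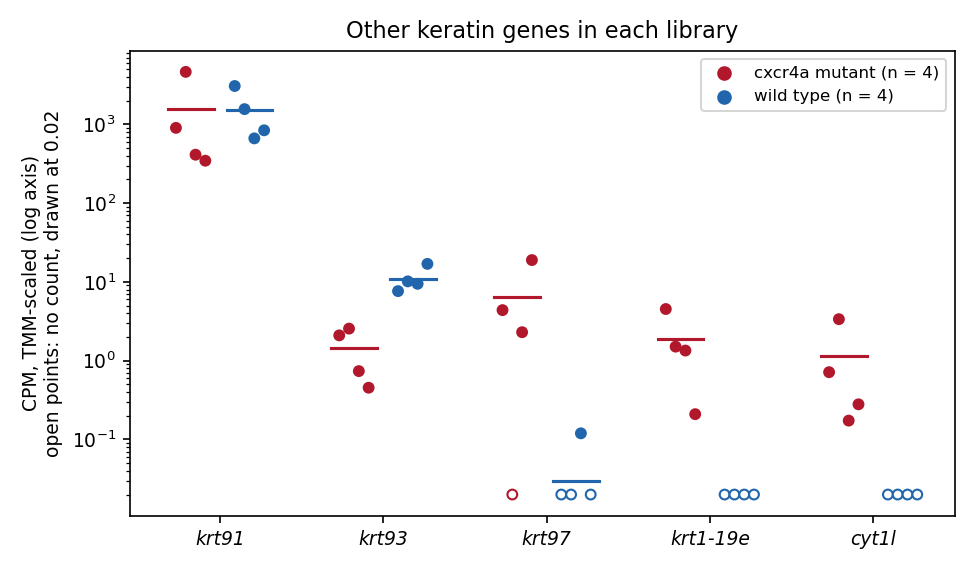
TMM-scaled CPM (log axis) of 5 keratin genes outside the set in cxcr4a mutant (red) and wild-type (blue) libraries 1 to 4, with the group mean as a bar and open points for libraries with no count. krt93 is at 0.454 to 2.55 CPM in the mutants and 7.64 to 16.9 CPM in the wild types, and krt1-19e and cyt1l have no wild-type counts.

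Other genes of the epithelial apparatus were read from lists, and edgeR called 0 members of any of them. Of 15 tested adherens junction genes, 4 had an unadjusted p under 0.05 with a higher value in the mutants and 0 with a lower one, beside 5.09% and 3.55% of all symbols, and the median log2 fold change was -0.08. jupb, a plakoglobin gene that links cadherins and desmosomes to the cytoskeleton, measured 28.1, 29.3, 41.6 and 39.6 CPM in the mutants and 8.69, 9.98, 14.1 and 16.6 CPM in wild types 1 to 4 (log2 fold change 1.49 ± 0.29, edgeR adjusted p = 0.138). nectin3b, a nectin adhesion gene, was at 88.3 ± 24.4 CPM in the mutants and 41.5 ± 9.58 CPM in the wild types (1.09 ± 0.26, edgeR adjusted p = 0.243), and ctnna1, encoding alpha-catenin, at 257 ± 55.7 CPM in the mutants and 138 ± 36.4 CPM in the wild types (0.90 ± 0.26, edgeR adjusted p = 0.322). DESeq2 called jupb and nectin3b (adjusted p = 0.00037 and 0.0173) and not ctnna1 (adjusted p = 0.0613). For these 3 genes every mutant lay above every wild type, as did 3.48% of all tested symbols.

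Of 21 tested tight junction genes, 14 had positive log2 fold changes with a median of 0.28 (0.10 without mutant 2, 0.18 without mutant 3 and 0.43 without wild type 2). An unadjusted p under 0.05 was found for 2 in each direction. Over all tested symbols 50.7% were positive, and 5.09% were higher and 3.55% lower in mutants at that threshold. cldn19, a claudin gene, measured 3.62, 0.116, 0.0867 and 0.803 CPM in mutants 1 to 4 and 17.4, 18.4, 33.2 and 22.1 CPM in wild types 1 to 4. Every mutant lay below every wild type, as for 2.82% of all tested symbols. The fold change, -4.29 ± 1.01 on the log2 scale, missed the threshold by edgeR (adjusted p = 0.232). It passed by DESeq2 (adjusted p = 0.000407), which called 2.23% of 20605 symbols. cldn3d was at 68.2 ± 31.9 CPM in the mutants and 136 ± 28.8 CPM in the wild types (-1.0003 ± 0.32, edgeR adjusted p = 0.418). cldn5a went the other way, at 22.5 ± 23.6 CPM in the mutants and 5.65 ± 3.31 CPM in the wild types (1.99 ± 0.70, edgeR adjusted p = 0.472). The scaffold gene tjp2b was at 323 ± 60.7 CPM in the mutants and 357 ± 75.5 CPM in the wild types.

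Desmosome genes were close to the background: 6 of 11 tested genes were positive, the median was 0.01, and 0 had an unadjusted p under 0.05. The plakophilin genes pkp3b and pkp4, of the desmosomal plaque, were at 217 ± 26.7 and 20.2 ± 2.74 CPM in the mutants and 299 ± 72.8 and 29.2 ± 7.39 CPM in the wild types (edgeR adjusted p = 0.609 and 0.605). perp, a desmosome-associated membrane protein gene, was at 345 ± 46.8 CPM in the mutants and 334 ± 43.5 CPM in the wild types (edgeR adjusted p = 0.976). Of 10 hemidesmosome genes 5 were positive, and of 25 apical polarity genes 12 were positive, with a median of -0.01. Neither list had a gene at an unadjusted p under 0.05. cd34 and podxl2, which belong to the same sialomucin family as podxl, were at 1125 ± 357 and 4.99 ± 1.16 CPM in the mutants and 752 ± 157 and 2.51 ± 1.61 CPM in the wild types (log2 fold changes 0.58 ± 0.27 and 0.99 ± 0.53, edgeR adjusted p = 0.593 and 0.660). Of 13 other epithelial surface genes 7 were positive, with a median of 0.08. Among these, egfra was at 1.03 ± 0.32 and the collagen receptor gene ddr1 at -1.14 ± 0.37 (edgeR adjusted p = 0.384 and 0.424).

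Of 19 tested mesothelial markers 15 had positive log2 fold changes, with a median of 0.37 that was 0.049 without mutant 2, and 3 had an unadjusted p under 0.05 with a higher value in mutants against 1 with a lower one. For all tested symbols these shares were 50.7% positive, 5.09% higher and 3.55% lower. The 26 matched mesothelial markers summed to 5767 to 8003 CPM in the mutants and 4261 to 5587 CPM in the wild types. hapln1a was the most counted of them, and the difference of sums was not tested. The listed genes bnc1 and bnc2, named after their values were seen, had lower means in the mutants. They were at 97.2 ± 40.9 and 275 ± 51.6 CPM in the mutants and 136 ± 71.3 and 316 ± 112 CPM in the wild types (edgeR adjusted p = 0.814 and 0.898). c3a.1, a complement component gene, was at 572 ± 113 CPM in the mutants and 144 ± 85.2 CPM in the wild types (1.99 ± 0.46, edgeR adjusted p = 0.222, DESeq2 adjusted p = 0.00393). Every mutant lay above every wild type, as for 3.48% of all tested symbols. efemp1, a fibulin gene, went the other way, at 10.1 ± 1.70 CPM in the mutants and 20.7 ± 5.50 CPM in the wild types (-1.03 ± 0.28, edgeR adjusted p = 0.308, DESeq2 adjusted p = 0.0204). Every mutant lay below every wild type, as for 2.82% of all tested symbols. hapln1a, a hyaluronan link protein gene, was at 2345 ± 860.5 CPM in the mutants and 1465 ± 699.9 CPM in the wild types (0.68 ± 0.40, edgeR adjusted p = 0.692). Of 11 tested epicardial markers 7 were positive, with a median of 0.65, and 5 had an unadjusted p under 0.05, all higher in mutants. The 12 epicardial markers summed to 12774.5 to 19858.0 CPM in the mutants and 9205.6 to 11201.5 CPM in the wild types. fn1b was the most counted of them, and also of the thrombocyte and erythrocyte marker list. The means of tcf21 and tbx18, given above, were lower in the mutants, and that of wt1b was higher. The difference of the epicardial sums was not tested either. The mesothelial and epicardial lists share wt1a, wt1b and hapln1a. cxcl12a, a chemokine gene whose product binds Cxcr4, was at 229 ± 85.8 CPM in the mutants and 89.6 ± 19.8 CPM in the wild types (1.36 ± 0.29, edgeR adjusted p = 0.162).

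Cardiomyocyte, mural and fibroblast markers also had mostly positive log2 fold changes, and endothelial and leukocyte markers did not. Over all tested symbols 50.7% were positive. An unadjusted p under 0.05 was found for 5.09% with a higher value in mutants and for 3.55% with a lower one. Of 16 tested cardiomyocyte markers 15 were positive, with a median of 1.17, and 6 had an unadjusted p under 0.05, all higher in mutants. Their summed level was 796, 1277, 3743 and 2664 CPM in mutants 1 to 4 and 2455, 1508, 1058 and 868 CPM in wild types 1 to 4. Mutant 1 thus lay below every wild type. All 13 tested mural markers were positive, with a median of 0.78, and 3 had an unadjusted p under 0.05, all higher in mutants. Their sum was 11451 CPM in mutant 2, 1044 to 2099 CPM in the other mutants and 666 to 5753 CPM in the wild types. acta2, the most counted of them, was at 6182 CPM in mutant 2, 17.2 to 129 CPM in the other mutants and 21.3 to 3300 CPM in the wild types (0.21 ± 1.84, edgeR adjusted p = 0.989). Of 17 tested fibroblast markers 13 were positive, with a median of 0.28, and 5 had an unadjusted p under 0.05, all higher in mutants. They summed to 44674 to 73431 CPM in the mutants and 44301 to 58343 CPM in the wild types. Leukocyte markers summed to 742 to 4639 CPM in the mutants and 1408 to 3503 CPM in the wild types, with 5 of 12 tested genes positive, and 6 of 22 tested endothelial markers were positive. edgeR called 0 genes of these lists, and the part of these cells in the mesothelial and epicardial marker values was not tested.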

How the data were processed

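RNA of sorted tcf21:nEGFP+ ventricular cells was sequenced from 4 cxcr4a mutant and 4 wild-type libraries. Per the submitters' processing notes, the tools were HTSeq, STAR 2.7.11a and cutadapt 5.2, with build GRCz11, and the authors deposited whole-number counts per gene row. The library kit does not mark strand, so reads of overlapping antisense genes cannot be told apart by strand. Copies of a symbol were summed. edgeR 4.0.16 in R 4.3.3 (TMM, filterByExpr, quasi-likelihood F-test, 2-sided, Benjamini-Hochberg over 16631 symbols) compared mutant with wild type. CPM are TMM-scaled, and log2 CPM used a prior count of 2. Single values were compared by exact permutation over 70 assignments. The fitting code was tested on simulated data. Alternatives were DESeq2 1.42.0, limma 3.58.1 (voom), other scalings and filters, rows as deposited, a replicate block and leaving out each library. The comparisons of copy shares, with their permutation tests, correlations and shares by chromosome, were not in the plan. Leaving out libraries for copy shares and a minimum of 50 counts were added after seeing the data. Members and lists were chosen with earlier results of these data known. All members were named. From each list, only genes among the 3 tested with the smallest p and the one with the highest CPM could be named; not all of them are. The same holds for other keratins from 1 CPM, and the 5 genes most like krt94 and podxl are given. Cell type markers and neighbours of krt4 were named besides. A planned ranking of members per coding length was not made, since no lengths were used here. Totals, 18891079 to 28471786 counts, set the counting precision.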

Additional observations from a re-analysis of the deposited data

Results flagged for a closer look

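In 34 checks of single libraries against the others of their group, 4 stood apart. A chance rate of about 1 in 20 groups holds only for normal values and independent checks. It cannot be compared with these flags, because genes share libraries and some groups are mostly 0. Mutant 2 was far above the other mutants for krt4 (3622 CPM), cdh1 (6.90 CPM) and krt91 (4629 CPM). Wild type 3 was the only wild type with a count of krt97 (4 counts, 0.120 CPM). With the other wild types at 0, any count there would have been flagged. The cause was not tested.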

How the results depend on the processing

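edgeR called 8 symbols in all, DESeq2 459, limma voom 0, the rows as deposited 63 and the fit with a replicate block 0, and leaving out 1 library gave 0 to 9. No member was called in any of 111 alternative fits, which take the plain copy for rows as deposited, with a lowest adjusted p of 0.225, and 9 had the other sign. The row krt18b_1 had an adjusted p of 0.123. Leaving out 1 library gave log2 fold changes of -0.30 to 0.61 for krt18a.1, -0.23 to 0.52 for krt18b, -0.26 to 0.32 for krt94, -0.30 to 0.079 for podxl and -1.47 to 0.60 for krt91, so these signs rest on single libraries. It gave -1.11 to -0.21 for krt4, -0.35 to -0.01 for krt8, 0.35 to 1.34 for cdh1 and -3.34 to -2.62 for krt93. On rows as deposited the plain copy of krt18b was at -0.95 and the adherens junction median at 0.11. krt91 was at -0.54 with limma voom and -0.61 with the replicate block. Leaving out 1 library moved the median of other keratins (-0.61 to 1.197), tight junction genes (0.10 to 0.43), other intermediate filaments (-0.15 to 0.42) and mesothelial markers (0.049 to 0.46). The krt18b copy share difference, mutant minus wild type, stayed between -55.5 and -39.4 percentage points. With a minimum of 50 counts, groups did not overlap for 29.7% of symbols on 2 rows. Replicate numbers did not pair the libraries (same-number deviations correlated at 0.0773, 0.0744, 0.0719 and -0.0815). Counts of krt15 and epcam were too low for a test. The cause of these changes was not tested.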

Other observations

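Intermediate filaments other than keratins, and the transcription factors of epithelial and mesenchymal states, were counted as well. Of 12 tested intermediate filament and related genes, 7 had positive log2 fold changes, with a median of 0.30 (-0.15 without mutant 2 and 0.08 without mutant 1), and edgeR called 0, with 0 at an unadjusted p under 0.05. The most counted was eppk1, the gene of the keratin-binding cytolinker epiplakin, at 803 ± 109 CPM in the mutants and 945 ± 219 CPM in the wild types (SD, n = 4 each; edgeR adjusted p = 0.835). vim, the vimentin gene of mesenchymal cells, was named after its values were seen. It measured 361, 927, 144 and 154 CPM in mutants 1 to 4 and 293, 277, 248 and 316 CPM in wild types 1 to 4 (edgeR adjusted p = 0.862), with mutant 2 again the highest library.

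Of 10 tested epithelial transcription factor genes 5 were positive, with a median of 0.01, and 5 of the 25 matched had no count in any library, among them grhl2b and the splicing factor gene esrp2. Of 12 tested mesenchymal transition factors 6 were positive, with a median of -0.17. An unadjusted p under 0.05 was found for 1 with a higher value in mutants and 0 with a lower one, beside 5.09% and 3.55% of all symbols. That gene was snai2, the most counted of the list, whose values are given above with cdh1. prrx1a was at 48.0 ± 21.4 CPM in the mutants and 80.5 ± 26.2 CPM in the wild types (edgeR adjusted p = 0.591), and zeb1b at 7.26 ± 1.81 CPM in the mutants and 12.8 ± 6.13 CPM in the wild types (edgeR adjusted p = 0.640).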
